A study of Mus musculus with 90 samples.

Results

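CT26 cells, an established mouse colon carcinoma line, were kept in IFNγ for 2 weeks, given a fresh dose and harvested 24 h later, and these 3 samples were set against 3 samples of cells kept in IFNγ for the same 2 weeks without a fresh dose. The 6 samples were chosen by their labels alone, from 90 samples in the series. The comparison asks which genes a fresh dose of IFNγ still moved by 24 h in cells that had already lived with the cytokine for 2 weeks. Of 8516 genes tested, 51 were higher and 5 were lower 24 h after rechallenge, and the rising genes included guanylate-binding protein GTPases, immunity-related GTPases, Irf1, Zbp1, Ly6a and immunoproteasome subunits.

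The series followed CT26 cells and YUMM2.1 cells, a mouse melanoma line, in 15 groups of 3 samples per line. Both groups compared here received 50 IU/mL IFNγ throughout in RPMI-1640 with serum and antibiotics, and were plated in wells for the final 48 h of culture. The reference groups were CT26 cells cultured for 2 weeks without IFNγ, the 2-week cells 2 h after rechallenge, naive CT26 cells with no IFNγ, naive cells 24 h after their first dose, and the pairs with and without 24 h of rechallenge at 1 and 3 weeks in CT26 and at 2 weeks in YUMM2.1. No group given fresh medium alone for 24 h was analysed here, so the fresh dose and the handling that came with it cannot be told apart. The labels describe the replicates as triplicate experiments without saying whether they were separate cultures. The p-values therefore measure a spread between replicates that may be technical in part. This spread was estimated over all 15 CT26 groups together, and over both lines for the comparison with YUMM2.1, not from the compared groups alone.

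RNA was measured by 3′ digital gene expression, which counts reads from the 3′ end of each transcript. Total counts were 1080166 to 1736116 in the 3 samples before rechallenge and 1343016 to 1772716 in the 3 samples after it, while the naive cells at 24 h were shallower, with 519097 to 1337965. Levels are given as CPM (counts scaled to the size of each library) after TMM scaling, which sets libraries level on the bulk of their genes, and changes as log2 fold changes ± SE with p-values of edgeR's quasi-likelihood test, adjusted by the Benjamini-Hochberg method over all genes tested and called below 0.05. These levels compare samples and not genes. Changes in the share of responding cells and in RNA per cell cannot be told apart in such bulk samples. Of 10 epithelial markers, 7 had no count in any of the 6 samples (Epcam, Krt8, Krt19, Cdh1, Cldn7, Cdx2 and Vil1), although the labels give the tissue as colon and the cell type as colorectal cancer, while Krt20 and Krt18 were detected in all 6. The summed level of 7 leukocyte markers was at most 4.34 CPM in any sample before rechallenge and 2.98 CPM after it. Of these 7, 4 had no count in any of the 6 samples, among them Cd3e, Adgre1 and Itgam. Ptprc and Lyz2 had counts in 5 of the 6 samples and Csf1r in 2. All 7 mesenchymal markers had counts, with summed levels of 1106 to 1329 CPM before rechallenge and 1212 to 1267 CPM after it. The summed level of 7 melanocyte markers was at most 10.2 CPM before rechallenge and 6.2 CPM after it. Of these melanocyte markers, 4 had no count in any of the 6 samples, and Dct had counts in all 6.

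IFNγ binds a receptor whose associated kinases JAK1 and JAK2 pass the signal to the nucleus. Genes with GAS elements in their promoters respond first, among them Irf1, which encodes a transcription factor that binds related ISRE elements and drives a later layer of genes. In tumour cells this programme raises antigen processing and MHC class I presentation, as well as GTPases that attack intracellular pathogens and the inhibitory ligand PD-L1.

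The 51 rising genes had a median log2 fold change of 1.23, from 0.49 to 3.84, while the median over all genes tested was 0.00500. Genes that rose made up 0.599% of all genes tested, genes that fell 0.0587% and both 0.658%. In these 6 samples, the 3 rechallenged samples lay above the 3 others for 653 genes (7.67% of those tested) and below them for 542 (6.36%). The number of calls depended on single samples, since 32 genes passed without rechallenged replicate 1 and 31 without replicate 2 of the cells before rechallenge, all of them among the 56. Whichever of the 6 samples was left out, 29 of the 56 still passed. DESeq2 called 59 genes, 53 of them shared. The genes below are grouped by lists of known members, and list members that did not pass are examples chosen after their values were seen.

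**Figure D1:**
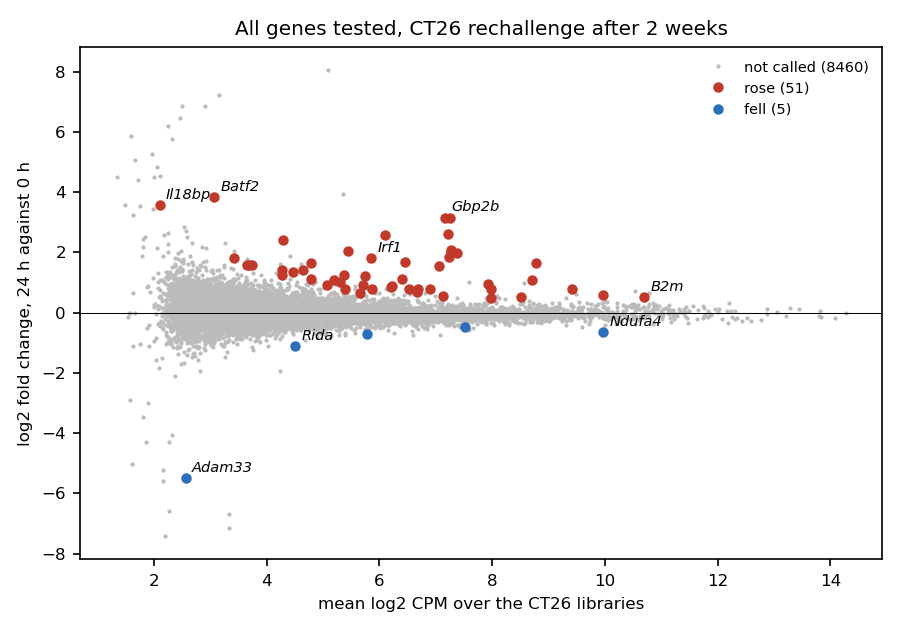
Log2 fold change between 24 h after rechallenge and 0 h for each of the 8516 genes tested (vertical axis) against the mean log2 CPM over the CT26 libraries (horizontal axis). Red points are the 51 genes that rose, blue points the 5 that fell, grey points the genes not called, some of which have larger fold changes at low counts.

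Guanylate-binding proteins (GBPs), GTPases that assemble on pathogen vacuoles and bacteria, formed the group with the largest median change. Of 10 members tested, 6 rose and none fell, with a median log2 fold change of 2.38. Gbp2b stood at 47.4, 33.2 and 56.0 CPM in the 3 samples before rechallenge and at 462, 416 and 368 CPM after it. The groups were far apart, and the log2 fold change was 3.15 ± 0.16 (adjusted p = 9.07e-19, edgeR). Gbp2 moved from 73.3, 69.3 and 70.5 CPM to 403, 438 and 449.5 CPM, a log2 fold change of 2.60 ± 0.16 (adjusted p = 2.90e-16, edgeR). Gbp4 moved from 44.7, 47.5 and 35.8 CPM to 356, 321 and 431 CPM, and its log2 fold change was 3.13 ± 0.21 (adjusted p = 4.64e-15, edgeR). For both genes every rechallenged sample exceeded every sample before rechallenge by several-fold.

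Gbp3 rose by 2.57 ± 0.16 on the log2 scale, Gbp7 by 2.08 ± 0.15 and Gbp9 by 1.82 ± 0.45 (adjusted p = 1.18e-15, 1.03e-13 and 0.0395, edgeR). Gbp9 was counted at no more than 6.36 CPM before rechallenge and lost its call when any of 4 samples was left out (rechallenged replicates 1 and 2, and replicates 1 and 2 before rechallenge, with adjusted p from 0.156 to 0.333). Gbp5, Gbp6, Gbp8 and Gbp10 did not pass the test, with log2 fold changes of 2.19, 2.18, 1.88 and 3.59, and Gbp11 had too few counts to be tested. Gbp7, Gbp3, Gbp2b and Gbp2 lie in 1 cluster on chromosome 3 (from 142530342, where Gbp7 starts, to 142638008, where Gbp2 ends, in GRCm38). Gbp4 and Gbp9 on chromosome 5 overlap on the same strand (105115767 to 105139586 and 105077630 to 105139539). Near-identical copies and overlapping genes can share reads, so the split of counts within each of these clusters is uncertain.

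**Figure D2:**
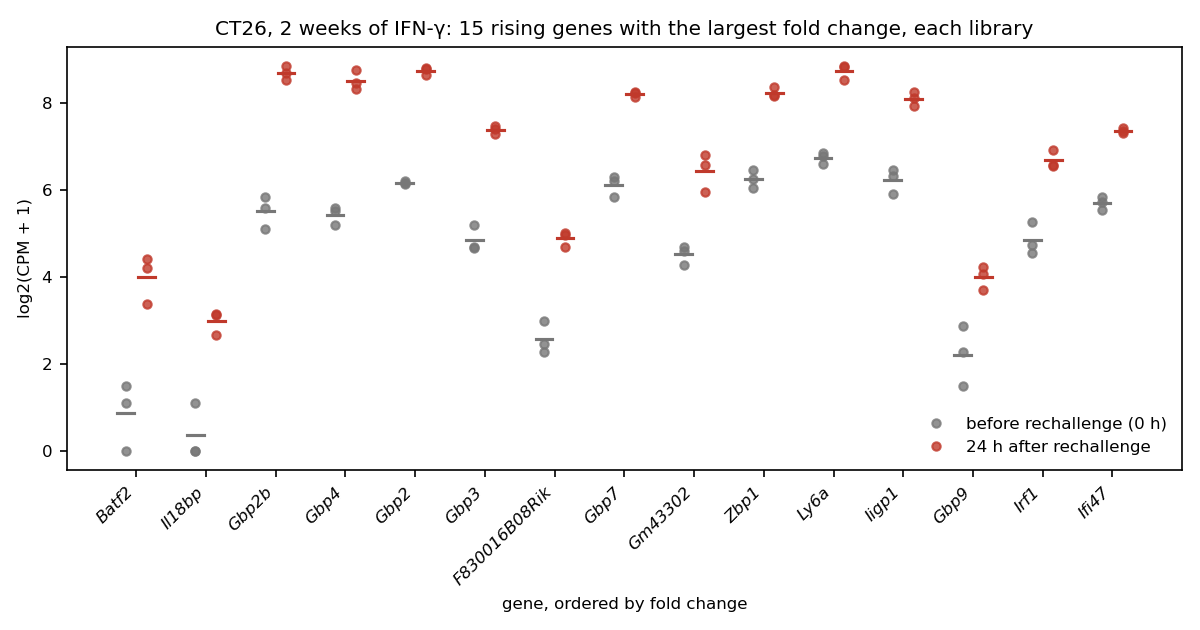
Level of the 15 rising genes with the largest fold change, as log2(CPM + 1) on the vertical axis, in each of the 3 samples before rechallenge (grey) and the 3 samples 24 h after it (red), with horizontal bars at the group means. The red points lie above the grey points for every gene shown, and Batf2 and Il18bp start from levels near 0.

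Immunity-related GTPases (IRGs), which act on the same pathogen vacuoles, rose in 7 of 11 members tested, and the median log2 fold change of the list was 1.63. Iigp1 stood at 59.0, 79.8 and 87.2 CPM before rechallenge and at 279, 243 and 306 CPM after it. The lowest rechallenged sample was well above the highest sample before rechallenge, and the log2 fold change was 1.86 ± 0.18 (adjusted p = 2.33e-10, edgeR). Igtp, which encodes IRGM3, moved from 78.7, 87.4 and 72.8 CPM to 249, 205 and 237 CPM, a log2 fold change of 1.54 ± 0.14 (adjusted p = 1.13e-10, edgeR). Irgm1, a regulator of the other IRGs, started from 291, 318 and 303 CPM and reached 685, 655 and 602 CPM, with a log2 fold change of 1.09 ± 0.11 (adjusted p = 5.91e-10, edgeR). Both sets of values were tight and did not overlap.

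The other IRG members that passed were Ifi47 (log2 fold change 1.67 ± 0.18), Tgtp2 (1.66 ± 0.30), Gm4951 (1.63 ± 0.24) and F830016B08Rik (2.42 ± 0.33). Gm12250, the uncharacterized 9930111J21Rik2, Tgtp1 and Irgm2 had values of 2.70, 1.43, 0.99 and 0.89 and did not pass. Tgtp1 and Tgtp2 are near-identical copies, and their separate values are uncertain. Leaving out any 1 of the 6 samples kept all 7 calls.

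Promoter sequences of RefSeq (GRCm38.p6) were available for 34 of the 51 rising genes and were searched, from 250 bases before to 50 bases after each start site, for the GAS letters TTCNNNGAA, which read the same on both strands, and for the ISRE-type letters GAAANNGAAA or, on the other strand, TTTCNNTTTC. GAS letters were present for 6 of the 34 genes (17.6%) and ISRE-type letters for 11 (32.4%), where a gene with several start sites counted once if any of them held the letters. Among the 6405 tested genes with a promoter sequence the shares were 7.87% and 4.12%, and among all 27025 genes with a promoter in RefSeq they were 9.55% and 3.99%. A match is a description of the letters and not of binding. Matches of the same kind can overlap, as in Gbp3, whose promoter held 2 overlapping ISRE-type matches. No GAS match overlapped an ISRE-type match in the promoters shown. The 150 bases before the start site are shown for 1 transcription factor gene, 1 GBP gene and 2 IRG genes. These genes all rose, and Irf1, Gbp7 and Igtp hold the letters in different arrangements. Capitals mark the matches, and each sequence reads 5′ to 3′ on the strand of the gene, given in brackets.
Irf1, chr11:53769864-53770013 (plus): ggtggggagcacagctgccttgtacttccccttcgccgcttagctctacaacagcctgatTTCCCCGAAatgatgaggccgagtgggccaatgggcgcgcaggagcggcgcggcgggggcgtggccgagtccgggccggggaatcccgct
Gbp7, chr3:142530186-142530335 (plus): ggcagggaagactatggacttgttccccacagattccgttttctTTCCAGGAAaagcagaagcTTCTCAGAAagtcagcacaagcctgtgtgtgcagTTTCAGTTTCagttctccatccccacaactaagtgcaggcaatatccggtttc
Igtp, chr11:58199406-58199555 (plus): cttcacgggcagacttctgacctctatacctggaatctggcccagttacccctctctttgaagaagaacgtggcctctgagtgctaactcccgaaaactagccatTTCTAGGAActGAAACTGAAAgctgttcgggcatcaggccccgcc
Tgtp2, chr11:49064213-49064362 (minus): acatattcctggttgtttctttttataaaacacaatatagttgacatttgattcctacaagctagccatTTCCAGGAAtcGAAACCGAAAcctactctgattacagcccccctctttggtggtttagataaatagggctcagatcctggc

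The Irf1 promoter held a single GAS match, whose first base is at position -90 from the start site, and no ISRE-type match. In Igtp a GAS match at -45 was followed by an ISRE-type match at -34, and in Gbp7 GAS matches at -106 and -87 were followed by an ISRE-type match at -53. Tgtp2 had the same arrangement as Igtp, with a GAS match at -81 and an ISRE-type match at -70. Among the genes not shown, Gbp2 held an ISRE-type match at -59 and Psmb8 a GAS match at -97.

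Among the receptor, kinases and transcription factors of the pathway, 3 of 13 members tested rose and none fell, with a median log2 fold change of 0.78. Irf1 stood at 22.3, 25.6 and 37.6 CPM before rechallenge and at 120.1, 92.6 and 94.6 CPM after it. The groups did not overlap, and the log2 fold change was 1.81 ± 0.18 (adjusted p = 9.29e-10, edgeR).

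Batf2, a bZIP factor that partners with IRF1, had 4 counts in all over the 3 samples before rechallenge and 74 after it, a ratio of 15.9 per total count (95% interval of 5.96 to 59.9, which covers counting error only). Its fitted log2 fold change was 3.84 ± 0.63 (adjusted p = 0.000116, edgeR). Stat2, Stat3, Jak1 and Irf7 had log2 fold changes of 1.25, 0.94, 0.85 and 0.80 and did not pass, and the receptor chains Ifngr1 and Ifngr2 had values of -0.15 and 0.16.

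The immunoproteasome replaces the catalytic subunits of the proteasome to favour peptides that fit MHC class I. All 3 of its catalytic subunits and the activator subunit Psme2 rose, 4 of 5 members tested, with a median log2 fold change of 0.94. Psmb10 stood at 229, 243 and 218 CPM before rechallenge and at 441, 469 and 408 CPM after it, a log2 fold change of 0.94 ± 0.10 (adjusted p = 1.91e-08, edgeR). Psmb9 moved from 78.7, 61.7 and 94.2 CPM to 177, 174 and 162 CPM (1.11 ± 0.17, adjusted p = 4.16e-05, edgeR). Neither subunit had overlapping groups. Psmb8 rose by 1.01 ± 0.23 and Psme2 by 0.59 ± 0.10 on the log2 scale (adjusted p = 0.0150 and 0.000274, edgeR), and Psmb8 lost its call without any of 3 samples (rechallenged replicate 1, and replicates 1 and 2 before rechallenge, adjusted p from 0.0899 to 0.156). Psme1, the partner of Psme2, lay just outside the threshold with 0.50 (adjusted p = 0.0567, edgeR), and DESeq2 called all 5 members.

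Of 18 genes for MHC class I chains and peptide loading, 4 rose, and the median log2 fold change was 0.44. H2-T22, a non-classical class I chain, moved from 54.5, 38.0 and 43.3 CPM to 78.2, 94.95 and 81.9 CPM (0.90 ± 0.16, adjusted p = 0.000446, edgeR). B2m, the invariant light chain, stood at 1864, 1501 and 2031 CPM before rechallenge and at 2546, 2765 and 2459 CPM after it. Its groups did not overlap, and its log2 fold change of 0.52 ± 0.13 passed narrowly (adjusted p = 0.0396, edgeR). The calls of B2m, H2-D1 (0.51 ± 0.12) and Tap2, a chain of the peptide transporter (1.35 ± 0.34), were lost in most omissions of a sample. B2m lost its call in 5 of 6 omissions, with adjusted p from 0.0684 to 0.629, H2-D1 in 4 and Tap2 in all 6, and H2-D1 and Tap2 also lost it when library totals replaced the TMM scaling (adjusted p = 0.0779 and 0.0678).

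Tap1, H2-K1 and Tapbp had log2 fold changes of 1.12, 0.66 and 0.65 and Nlrc5, the transactivator of class I genes, 0.85 ± 0.60, and none passed. CT26 derives from BALB/c mice, whose H2 alleles differ from those of the reference genome, so counts of single H2 genes are uncertain. None of the 7 genes of the MHC class II pathway, including its master regulator Ciita, had enough counts to be tested.

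Antiviral effectors and nucleic acid sensors gave 4 rising genes of 29 tested, with a median log2 fold change of 0.64. Zbp1, a sensor of Z-form nucleic acids, stood at 86.7, 65.5 and 75.1 CPM before rechallenge and at 287, 333 and 290.5 CPM after it. These groups were well apart, with a log2 fold change of 2.00 ± 0.15 (adjusted p = 4.45e-13, edgeR). Ifi44 (1.08 ± 0.20), Rtp4 (0.84 ± 0.17) and Isg20 (0.78 ± 0.18), an exonuclease, also rose. Rtp4 lost its call without replicate 2 or 3 before rechallenge (adjusted p = 0.150 and 0.0726, edgeR), and Isg20 without these or without rechallenged replicate 1 (adjusted p from 0.132 to 0.455). Isg20 also lost it with the compared groups alone or with no filter on low counts (adjusted p = 0.0688 and 0.0932, edgeR). The IFIT and OAS members tested did not pass, among them Ifit3 at 1.63, Oas3 at 0.92, Ifit1 at 0.57 and Oas1a at 0.27 on the log2 scale. In the same list 14 members were higher at an unadjusted p below 0.05 and none lower.

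In the ISG15 conjugation list 1 of 6 members rose, the ubiquitin-conjugating enzyme Ube2l6 (0.77 ± 0.14, adjusted p = 0.000427, edgeR), beside Isg15 itself at 1.17. Of the interferon-induced PARPs and Dtx3l, 1 of 6 rose, and the list median was 1.07. Parp9, a macrodomain protein that pairs with Dtx3l, moved from 15.2, 9.50 and 12.1 CPM to 27.2, 33.5 and 26.8 CPM (1.23 ± 0.31, adjusted p = 0.0478, edgeR). Its groups did not overlap, but it stood just inside the threshold and lost its call in all 6 omissions of a sample (adjusted p from 0.0824 to 0.357) and under library totals (adjusted p = 0.0590). Parp14, a mono-ADP-ribosyltransferase, stood at 4.47, 2.85 and 8.09 CPM before and 14.2, 7.01 and 10.7 CPM after rechallenge, which overlapped, and its log2 fold change was 0.97 ± 0.53 (adjusted p = 0.746, edgeR). Parp12 had a log2 fold change of 0.98 ± 0.60 (adjusted p = 0.789, edgeR).

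The tryptophanyl-tRNA synthetase Wars rose from 93.0, 99.7 and 90.7 CPM to 159, 144 and 154 CPM (0.69 ± 0.11, adjusted p = 0.000134, edgeR), and the aminopeptidase Lap3 by 0.55 ± 0.13 (adjusted p = 0.0266, edgeR), 2 of 7 members tested of the list of complement genes and interferon-driven enzymes. Lap3 lost its call in all 6 omissions of a sample, with adjusted p from 0.0927 to 0.146, and with no filter on low counts (adjusted p = 0.0596, edgeR).

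In the list of checkpoint ligands, chemokines and cytokines, 0 of 6 members tested passed with edgeR or with DESeq2, and 1 was higher at an unadjusted p below 0.05. Cd274, which encodes PD-L1, stood at 4.47, 0.950 and 2.89 CPM before rechallenge and at 12.5, 10.1 and 15.4 CPM after it. Every rechallenged sample was above every sample before rechallenge, and the log2 fold change of 2.14 ± 0.57 missed the threshold (adjusted p = 0.0692, edgeR). Cxcl10, a T cell chemoattractant, overlapped between groups at 3.58, 0 and 5.20 against 5.10, 0.778 and 8.05 CPM (0.55 ± 0.69, adjusted p = 0.947, edgeR). Of 6 feedback inhibitors of JAK-STAT signalling, 0 passed with edgeR or DESeq2 and 2 were higher at an unadjusted p below 0.05. Socs1, the JAK inhibitor, had 3 counts before and 24 after rechallenge, a ratio of 6.88 (95% counting interval of 2.09 to 35.7), and a fitted log2 fold change of 2.65 ± 0.88 (adjusted p = 0.283, edgeR).

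The rising genes also included 19 that were in none of the lists. Ly6a, which encodes the surface protein Sca-1, had one of the clearest separations, from 109, 96.9 and 114 CPM to 460.4, 453 and 370.3 CPM (2.00 ± 0.17, adjusted p = 4.31e-12, edgeR). Ly6c1, of the same family and also on chromosome 15, rose by 1.43 ± 0.27 (adjusted p = 0.00104, edgeR). Il18bp, a secreted inhibitor of IL-18, had 2 counts before and 32 after rechallenge, a ratio of 13.8 (95% counting interval of 3.51 to 118), and its call was lost in all 6 omissions of a sample, with adjusted p from 0.0647 to 0.317, and with the 2 shallowest CT26 samples left out (adjusted p = 0.0518, edgeR). The metallothionein Mt2 rose from 617, 613 and 698 CPM to 1129, 1192 and 975 CPM (0.77 ± 0.14, adjusted p = 0.000491, edgeR), with no overlap. The others were AA467197, Apol9a, Gm4070, Gm43302, Gm4841, Hras, Idnk, Ifi203, Ifi204, Nmi, Plac8, Prdx5, Samd9l, Sp110 and Upp1, with log2 fold changes between 0.49 and 2.04, and Ifi203 and Ifi204 are paralogs that can share reads. Of these 15, Gm43302, Idnk and Ifi203 passed whichever of the 6 samples was left out, and the other 12 lost their call in at least 1 omission (adjusted p from 0.0553 to 0.377, edgeR). The lists were fixed by symbol, and some unlisted genes lie near list members. Gm43302 lies on the chromosome and strand of Gbp4 and Gbp9 (chromosome 5, 105214907 to 105293695). Gm4841 lies on chromosome 18 between the IRG members Gm4951 and F830016B08Rik. The GBP and IRG counts leave both out, and shared reads or family membership were not tested.

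Ndufa4, 1 of the 5 genes that fell and a subunit of cytochrome c oxidase, stood at 1062, 1038 and 962.5 CPM before rechallenge and at 609, 694 and 635 CPM after it, and fell by 0.66 on the log2 scale (SE 0.10, adjusted p = 5.51e-05, edgeR). It was the only falling gene that passed whichever sample was left out. Rida, a deaminase, moved from 23.2, 28.5 and 24.8 CPM to 6.80, 15.6 and 13.4 CPM and fell by 1.12 (SE 0.27, adjusted p = 0.0256, edgeR), with groups apart. Ephx1, an epoxide hydrolase, and Limk2, a kinase that phosphorylates cofilin, fell by 0.71 and by 0.47 (adjusted p = 0.0314 and 0.0478, edgeR). Adam33, a metalloprotease, had 18 counts over the 3 samples before rechallenge and 0 after it, at least 6.98-fold lower when 3 counts over the group are taken as the floor (adjusted p = 0.0395, edgeR).

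Without single samples, Rida lost its call in 3 of the 6 omissions (adjusted p from 0.0734 to 0.451), Ephx1 in 4 (0.0723 to 0.422), Adam33 in 5 (0.135 to 0.228) and Limk2 in all 6 (0.121 to 0.290). Rida did so without rechallenged replicate 1 and without replicates 2 and 3 before rechallenge, Ephx1 without replicates 1 and 2 of either group, and Adam33 kept its call only without replicate 1 before rechallenge. Ephx1 and Rida also lost theirs when only the compared groups were fitted (adjusted p = 0.132 and 0.0870, edgeR), and they and Limk2 did so with no filter on low counts (adjusted p = 0.150, 0.0769 and 0.295, edgeR).

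No member passed in the lists for caspases (6 tested), NF-kB (5), immediate-early factors (9), TGFβ signalling (11), DNA replication and mitosis (23), cytosolic ribosomal proteins (24), glycolysis and hypoxia (16), ER stress (15) and sterol and fatty acid synthesis (17) with edgeR. DESeq2 called 1 member in these 9 lists, Id3 of the TGFβ list. At an unadjusted p below 0.05 the TGFβ list had 5 members higher and 1 lower, the sterol list 6 lower, the glycolysis list 4 lower and the replication list 2 lower. The medians of the sterol and replication lists were -0.25 and -0.12, and that of the ribosomal list was 0.12.

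**Figure D3:**
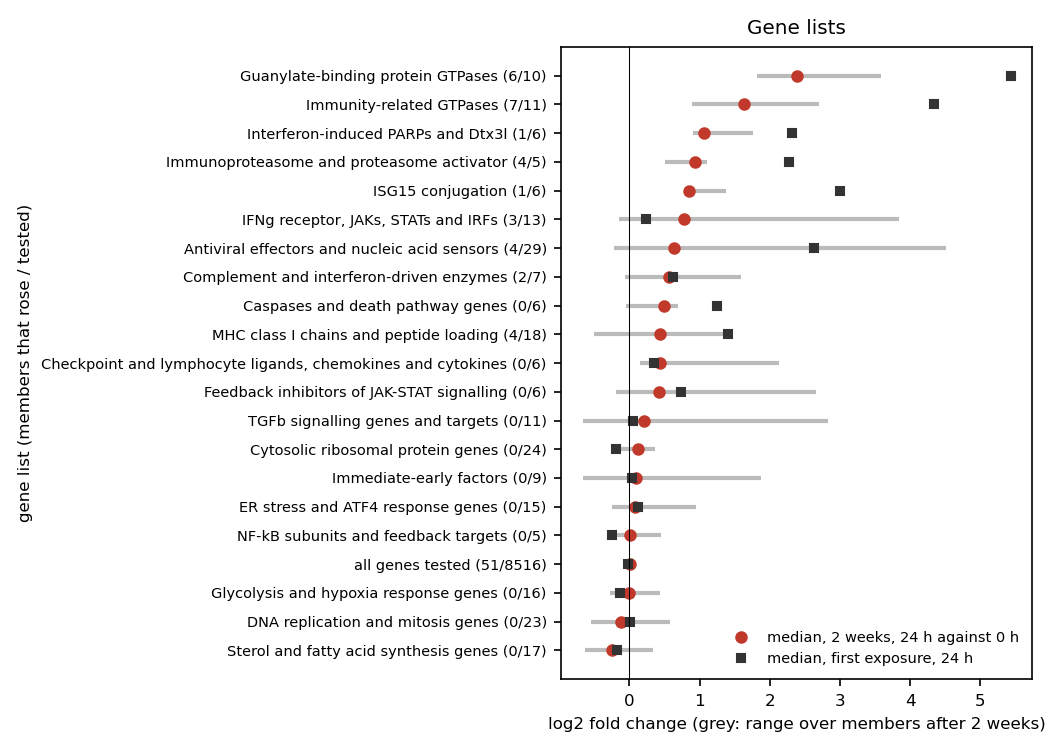
Median log2 fold change of each gene list 24 h after rechallenge at 2 weeks (red circles) and 24 h after a first dose in naive cells (black squares), with the range over members after rechallenge in grey and, in brackets, how many of the members tested rose after rechallenge. The GBP and IRG lists have the red circles farthest to the right, with medians of 2.38 and 1.63 after rechallenge, and the lists at the bottom lie around 0.

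Most of the rising genes were already raised before the fresh dose. Against cells cultured for 2 weeks without IFNγ, 37 of the 51 were higher in the 2-week IFNγ cells before rechallenge (0.928% of all genes tested were higher in that comparison) and 50 of the 51 after it (2.33% of all genes tested). These comparisons share samples with the comparison that chose the genes, so the values are given side by side. Over all genes tested, 5.32% were called after rechallenge (198 higher, 255 lower) and 1.67% before it (79 higher, 63 lower), and library totals in place of TMM gave 249 higher and 168 lower after it and 103 higher and 46 lower before it. The count of rising genes above the control was 31 to 38 before rechallenge and 48 to 50 after it in the alternative fits. Gbp2 stood at 2.95, 6.90 and 4.82 CPM in the 2-week control, which puts its level before rechallenge 3.91 above the control on the log2 scale and its level after rechallenge 6.51 above it. Iigp1 was 5.30 above the control before rechallenge and 7.16 after it. Among the genes not called above the control before rechallenge were Wars, Tap2, Parp9, Lap3, Prdx5, Upp1 and Plac8.

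Hras, which encodes a small GTPase of MAPK signalling and was singled out after its values were seen, was the rising gene not called above the control. Its call after rechallenge was lost in 5 of the 6 omissions of a sample, all but that of rechallenged replicate 3 (adjusted p from 0.124 to 0.264, edgeR). It stood at 8.85, 12.7 and 4.82 CPM in the control, at 3.58, 4.75 and 4.04 CPM before rechallenge and at 14.2, 13.2 and 10.1 CPM after it. The control and rechallenged samples overlapped, and the 3 samples before rechallenge lay below both (24 h against control 0.53 ± 0.36, adjusted p = 0.497, edgeR). Of the 5 falling genes, all 5 were below the 2-week control after rechallenge (2.99% of all genes tested), and Ndufa4 alone was also called below it before (0.74%), with 1281, 1414 and 1371 CPM in the control.

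**Figure D4:**
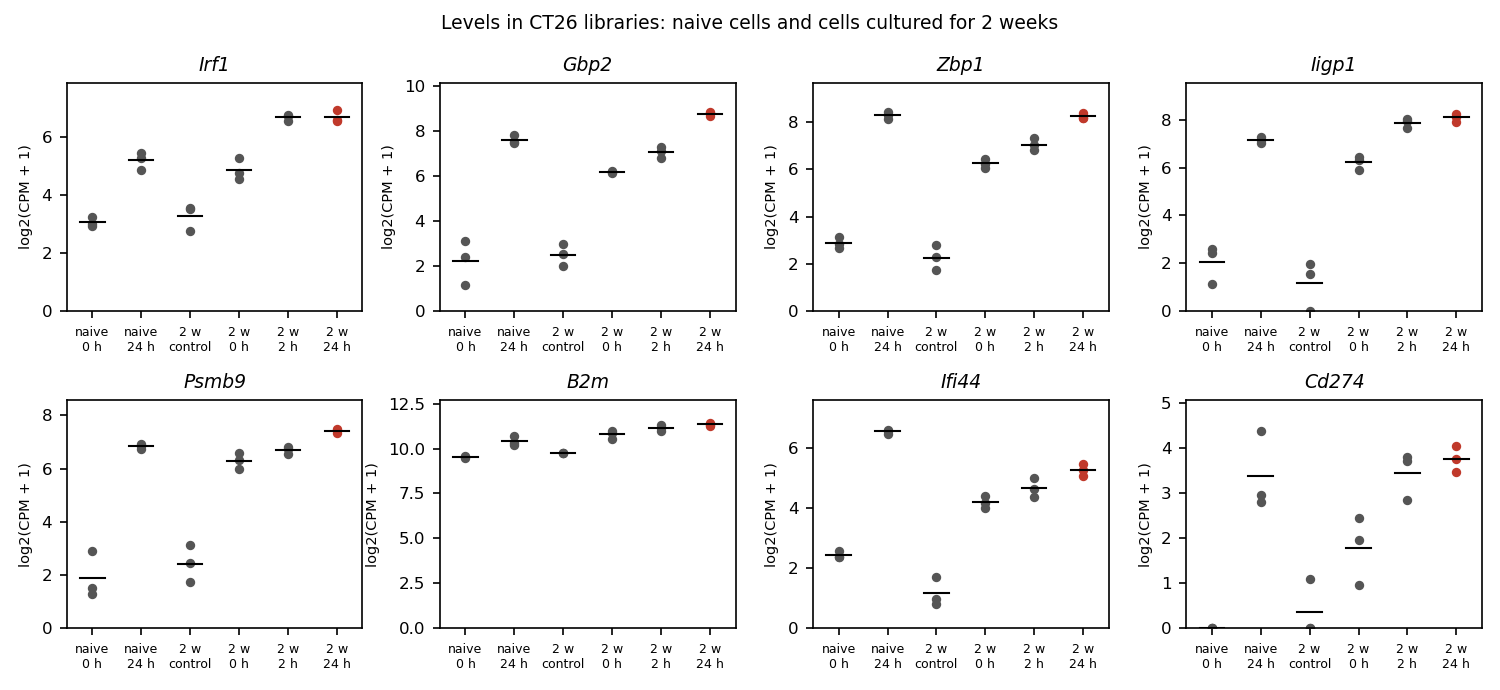
Level of 8 genes as log2(CPM + 1) on the vertical axis in 6 CT26 groups of 3 samples (naive at 0 h and 24 h, 2-week control, 2-week IFNγ at 0 h, 2 h and 24 h), each point a sample and each bar a group mean, with the 24 h rechallenge in red. Gbp2 and Irf1 rise above their naive 24 h levels after rechallenge, and Ifi44 stays below its naive 24 h level.

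The 2-week cells were also sampled 2 h after the fresh dose, and this group shares its reference samples with the 24 h comparison. At 2 h, 16 of the 51 genes were already called higher than before rechallenge (0.294% of all genes tested), and 0 of the 5 falling genes were called lower (0.0117%). Irf1 stood at 104.7, 91.9 and 104 CPM at 2 h, Iigp1 at 248, 201 and 263 CPM and Irgm1 at 732, 598 and 769 CPM. The log2 differences between 24 h and 2 h were 0.04 ± 0.15, 0.22 ± 0.16 and -0.11 ± 0.10 for these genes, and none was called. A test of 24 h against 2 h called 17 of the 51 genes higher at 24 h and none lower (0.2% of all genes tested were higher). It called 10 of the 51 without rechallenged 24 h replicate 1, 2 h replicate 1 or 2 h replicate 2, 11 without 24 h replicate 3 and 12 without either of the others.

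The 17 genes included 5 GBPs and the antigen-processing genes Psmb9, Psmb10, Psme2 and H2-T22. Gbp4 stood at 86.0, 69.1 and 103 CPM at 2 h and was 2.1 ± 0.19 higher on the log2 scale at 24 h (adjusted p = 8.75e-11, edgeR). Gbp2b was 1.78 ± 0.14 higher, Gbp2 1.68 ± 0.15, Gbp3 1.46 ± 0.14, and Gbp7 0.77 ± 0.14. Psmb10, at 247, 220 and 282 CPM at 2 h, differed by 0.12 ± 0.11 from its level before rechallenge and was 0.81 ± 0.10 higher at 24 h (adjusted p = 8.33e-07, edgeR), and Wars and Ube2l6 differed by -0.04 ± 0.12 and 0.01 ± 0.14 at 2 h from their levels before rechallenge and were higher at 24 h than at 2 h by 0.73 ± 0.11 and 0.76 ± 0.13. Outside the rising genes, 4 genes were lower at 24 h than at 2 h (0.047% of all genes tested), among them Ndufa4 (-0.46 ± 0.10), the immediate-early factor Junb (-0.98 ± 0.23) and the SMAD repressor Skil (-1.20 ± 0.28).

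The same 24 h in naive CT26 cells, compared with untreated naive cells, gives the response to a first dose. Of the 51 genes, 48 also rose there (1.77% of all genes tested rose and 2.04% moved either way), which is 94.1% of the genes that rose after rechallenge and 31.8% of the 151 that rose after a first dose. Hras, Lap3 and Il18bp were the exceptions. Of the 5 falling genes, Ndufa4 alone also fell after a first dose, by 0.52 on the log2 scale (0.27% of all genes tested fell). The difference between both responses, which uses the 2-week samples that chose the genes, was tested for every gene in 1 model, and it was called smaller after rechallenge for 32 of the 51 genes and larger for none (0.822% of all genes tested were smaller, 0.106% larger and 0.928% either). The count lay between 28 and 32 in the alternative fits, and 1 gene was larger when only the compared groups were fitted. Among the falling genes, the difference was called for Rida alone (-1.53 ± 0.39, adjusted p = 0.0355, edgeR). For Ndufa4 it was -0.14 ± 0.15 (adjusted p = 0.779, edgeR).

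Psmb9 rose by 5.04 ± 0.29 after a first dose and its response differed by -3.93 ± 0.36 (adjusted p = 8.57e-11, edgeR). Zbp1 and Gbp7 rose by 5.59 ± 0.22 and 5.68 ± 0.24, and their responses differed by -3.59 ± 0.29 and -3.60 ± 0.31. For these genes no untreated naive sample exceeded 7.80 CPM, while the rechallenge started from levels already called above the 2-week control. Irf1 rose by 2.31 ± 0.27 after a first dose, and the difference of -0.50 ± 0.33 did not pass (adjusted p = 0.608, edgeR). For B2m, H2-D1, Wars, Upp1, Mt2 and Prdx5 the responses differed by values between -0.39 and 0.08 that did not pass.

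**Figure D5:**
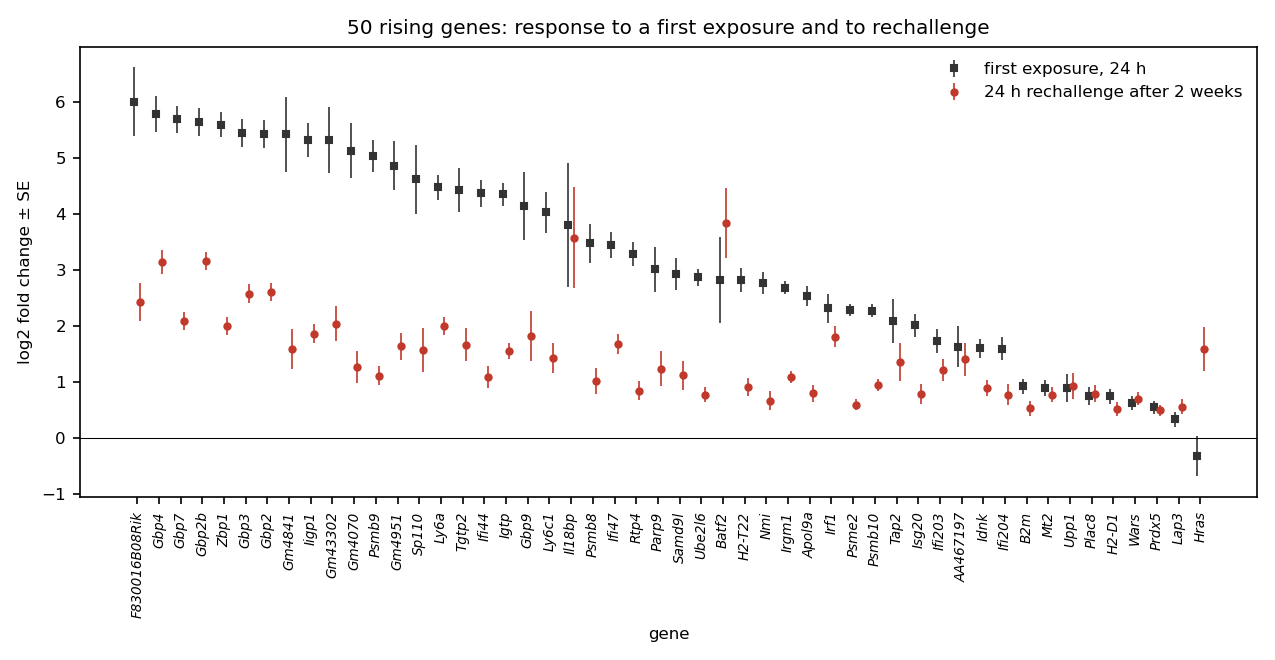
Log2 fold change ± SE of 50 rising genes 24 h after a first dose of IFNγ in naive cells (black squares) and 24 h after rechallenge at 2 weeks (red circles), ordered by the response to the first dose. The median of the black squares is 2.97 and that of the red circles 1.24, and Batf2, Wars, Upp1, Plac8, Lap3 and Hras are the genes whose red circle lies higher.

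The levels reached at 24 h were compared directly between rechallenged and naive cells. Of the 51 genes, 10 were higher in the rechallenged cells (0.622% of all genes tested), 2 were lower (1.06% of all, with 1.68% either way) and 39 were neither, with a median log2 difference of 0.35 over the 51 and 0.01 over all genes tested. DESeq2 called 19 higher and 3 lower. Irf1 reached only 27.7, 42.5 and 37.2 CPM in naive cells at 24 h and was 1.5 ± 0.19 higher on the log2 scale in the rechallenged cells (adjusted p = 2.26e-06, edgeR). Gbp2b, Gbp2, Gbp4, Iigp1 and Ly6a were higher by 1.26 ± 0.15, 1.13 ± 0.15, 1.02 ± 0.19, 0.98 ± 0.18 and 0.77 ± 0.16, and B2m and H2-D1 by 0.91 ± 0.13 and 0.87 ± 0.13. Mt2 and Prdx5 completed the 10.

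Ifi44 and Samd9l were lower in the rechallenged cells. Ifi44 stood at 95, 88.3 and 97.4 CPM in naive cells at 24 h against 32.9, 43.6 and 37.6 CPM after rechallenge, a difference of -1.31 ± 0.18 (adjusted p = 5.65e-06, edgeR). Over the list of antiviral effectors, 23 of 29 members rose after a first dose, 7 were lower in rechallenged than in naive cells at 24 h and 1 was higher. The IRG list had 9 of 11 members rising after a first dose and 1 level higher after rechallenge, and the GBP list 7 of 10 and 3. The naive 24 h samples had 519097, 618598 and 1337965 counts, fewer than the rechallenged ones, and the number of all genes called in this comparison moved from 143 to between 58 and 291 when 1 of its 6 samples was left out. It was 58, 64 and 291 without naive replicates 1, 2 and 3, and 65, 78 and 95 without rechallenged replicates 1, 2 and 3. The members called moved less, with 9 to 11 higher and 1 or 2 lower in these omissions.

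At 1 week, 41 of the 51 genes rose 24 h after rechallenge (0.928% of all genes tested rose, 0.388% fell and 1.32% did either). Ndufa4 fell there too, by 0.61 on the log2 scale. No gene had a response that differed between 2 weeks and 1 week with edgeR (0% of genes tested), while 419 differed at an unadjusted p below 0.05 and DESeq2 called 1. The log2 response at 2 weeks minus that at 1 week had a median of -0.23 over the 51 genes and was above 0 for 15. Without the filter on low counts, 4 of the 51 were called smaller at 2 weeks. At 1 week Gbp2 moved from 37.1, 33.7 and 19.0 CPM to 443, 428 and 339 CPM, a log2 fold change of 3.61 ± 0.19. At 3 weeks the same rechallenge moved no gene with edgeR or DESeq2 (0% of genes tested), with 439 at an unadjusted p below 0.05, and the 51 genes had a median log2 fold change of 0.07, from -0.54 to 0.55. The 2 shallowest CT26 samples were replicate 3 before rechallenge at 1 week (322486 counts) and at 3 weeks (295157 counts). No 3-week sample compared here exceeded 1080409 counts. Low depth makes a call harder to reach, and its share in these results was not tested.

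The responses at 2 and 3 weeks were compared in 1 model. The 2-week samples in it are those that chose the 51 genes, a choice that favours a larger response at 2 weeks. The response at 2 weeks was larger for 18 of the 51 genes and smaller for none of them (0.223% of all genes tested were larger and 0.27% differed), and 14 to 16 of these 18 passed when 1 of the 12 samples was left out. The genes with the smallest p were Gbp2b, Gbp2, Gbp3, Gbp4 and Gbp7, whose responses differed by 3.40 ± 0.22, 2.52 ± 0.22, 2.59 ± 0.23, 3.06 ± 0.28 and 2.05 ± 0.21. Gbp2 stood at 227, 255 and 298 CPM at 3 weeks before rechallenge and at 242, 282 and 277 CPM after it, whereas its levels at 2 weeks were 69.3 to 73.3 CPM before rechallenge. Irf1 stood at 59.7, 93.6 and 73.6 CPM at 3 weeks before rechallenge and at 60.9, 69.7 and 60.0 CPM after it, and its responses differed by 2.05 ± 0.26 (adjusted p = 9.61e-07, edgeR). Ndufa4 and Rida, which fell at 2 weeks, had responses that differed by -0.87 ± 0.15 and -1.95 ± 0.40, among 0.047% of all genes tested with a smaller response.

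In YUMM2.1 cells rechallenged for 24 h after the same 2 weeks, 31 of the 51 genes rose and 0 of the 5 falling genes fell. Of the 10339 genes tested in both lines, 0.493% rose, 0.0677% fell and 0.561% did either. Adam33, 1 of the 5, had a fitted log2 fold change of 0 with an SE of 0 in YUMM2.1, which gives no information on a fall there. The difference in response between the lines was called for 1 gene of all those tested (0.00967% with edgeR, against 399 genes at an unadjusted p below 0.05 and 1 with DESeq2), Gbp3, whose log2 response was larger in CT26 by 1.54 ± 0.25 (adjusted p = 0.000429, edgeR). This comparison again uses the CT26 samples that chose the genes. Gbp3 rose by 2.57 in CT26 and by 1.03 ± 0.17 in YUMM2.1. For Gbp2b and Ly6a the differences had SEs of 2.29 and 0.69 on the log2 scale, which leaves room for sizeable differences between the lines in either direction.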

How the data were processed

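The series holds 90 samples of CT26 and YUMM2.1 cells, 15 groups of 3 per line, profiled by sequencing the 3′ ends of transcripts. The values used are read counts, which the authors deposited as whole numbers in a single table and did not normalize or pool. The submitters' processing notes name Salmon 0.13.1 and mm10, and the paper adds that counts were imported with tximport. Annotation release and strand of counting are not given in the sources used here. The study discarded 4 CT26 samples and 1 YUMM2.1 sample as outliers that the sources used here do not name, and all samples were kept.

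All 15 CT26 groups entered a single edgeR 4.0.16 fit (R 4.3.3) with filterByExpr by group, TMM scaling, quasi-likelihood tests of contrasts between groups, no covariates, Benjamini-Hochberg adjustment and a threshold of 0.05. YUMM2.1 was compared in a fit of both lines. SEs were derived from the test statistic. CT26 totals were 295157 to 2205285 counts per sample, and a gene with few counts has low precision. Of 53697 gene identifiers, 53668 matched a symbol. The fit was tested on simulated data. No pair of replicates of the compared groups agreed within sampling noise. Positions are from GENCODE M21 (GRCm38).

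The members and lists were chosen with earlier results of these data known. Named genes were the 15 largest rises with groups that did not overlap, all falling genes, list members that passed, Irf1, Cd274, B2m, Nlrc5, Socs1, Parp14, Parp9, Parp12, Ciita and Cxcl10, and the 5 smallest p of each difference between responses. Some genes are not reported here. Alternatives were DESeq2 1.42.0, library totals, no filter, a fit of the compared groups alone, replicate number as block, omission of each sample in turn, a prior count of 0.5 in place of 2 for log2 CPM, and omission of samples with under 25% of their line's median total.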

Additional observations from a re-analysis of the deposited data

Results flagged for a closer look

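A response that differed between settings was found in 3 comparisons, by a test of the difference itself in edgeR, with p adjusted by the Benjamini-Hochberg method. The 24 h response at 2 weeks differed from that of naive cells for 79 genes, 9 larger and 70 smaller. Among those with the smallest p, 4 had differences in log2 response of -3.59 (Zbp1), -1.68 (Psme2), -3.60 (Gbp7) and -3.93 (Psmb9). The 9 genes with a larger difference, Sirt5, Wdr31, Gm10845, Gm9864, Nap1l1, Gm48368, Actg1, Gm10040 and S100a11, had lower levels after a first dose, with log2 responses from -1.32 to -0.42, and none of them passed in the rechallenged cells. Without replicate 3 of the naive cells at 24 h, the deepest of that group, the number of genes rose to 142.

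Between 2 and 3 weeks the response differed for 23 genes, 19 larger and 4 smaller at 2 weeks, led by Gbp2b (3.40), Gbp2 (2.52), Gbp3 (2.59), Gbp4 (3.06) and Gbp7 (2.05). Between CT26 and YUMM2.1 it differed for 1 gene, Gbp3 (1.54). Groups of 3 were not tested for single samples that stand apart.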

How the results depend on the processing

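The 56 genes called after rechallenge numbered 57 to 69 with DESeq2, library totals, the compared groups alone, the replicate block or without the shallowest samples, and 98 without the filter on low counts (84 higher and 14 lower, 48 shared). No filter also gave 48 genes between 24 h and 2 h, 169 between 2-week and naive responses, 45 between 2 weeks and 1 week, 74 between 2 and 3 weeks and 17 between the lines. DESeq2 gave 128 between 2-week and naive responses, 292 between the levels at 24 h and 1 between 2 weeks and 1 week. The compared groups alone gave 88 between the levels at 24 h, 705 against the 2-week control and 2 between the lines, and omission of the shallowest samples gave 1 between 2 weeks and 1 week. The cause was not tested.

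With 1 sample left out, the counts ran from 31 to 49 for the 56 genes, from 10 to 15 between 24 h and 2 h (21 with all samples), from 57 to 142 between 2-week and naive responses (79), from 58 to 291 between the levels at 24 h (143), from 0 to 1 between 2 weeks and 1 week (0), from 16 to 25 between 2 and 3 weeks (23), from 265 to 324 against the 2-week control (453), from 101 to 110 before rechallenge (142) and from 1 to 2 between the lines (1). Against the control the count fell by over 1.5 times without rechallenged replicate 1 (276) and control replicates 2 (269) and 3 (265). The log2 fold change of Cxcl10 ran from -0.018 without rechallenged replicate 3, a reversed direction, to 1.32 without replicate 3 before rechallenge, and it did not pass in any fit.

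The deviations of same-numbered samples correlated at 0.29, -0.45 and -0.55 over 2000 genes, without a common sign, and the samples were treated as unpaired. Differently numbered samples were not correlated for comparison, so these values cannot exclude a pairing. With the replicate block 57 genes passed, 54 of them shared, and Il18bp and Limk2 lost their calls (adjusted p = 0.0670 and 0.0569, edgeR). Depth limits the genes with few counts, such as Batf2, Adam33, Il18bp and Socs1, and the naive 24 h samples.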
